A study of Mus musculus with 19 samples.

Results

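The cells described here are the melanocytic cells of 1 tumour, held in the matrix labelled KO ocular. Per the labels, tumours were grown from Melan-a, a pigmented mouse melanocyte line that grows without limit in culture, either unedited (WT) or with Bap1 knocked out by CRISPR (KO), placed in the eye or under the skin of syngeneic mice that received no drug. A barcode, the tag of 1 droplet, counted as a melanocytic cell when it held at least 2000 UMIs (unique molecular identifiers, each standing for 1 captured RNA molecule), at least 200 genes, under 20% of UMIs from mitochondrial genes, at least 7 of 11 melanocyte genes, and at most 1 of 5 genes of other cells. The 11 melanocyte genes were Mlana, Pmel, Tyr, Tyrp1, Dct, Slc45a2, Slc24a5, Oca2, Gpr143, Mitf and Sox10, and the 5 excluding genes were Ptprc, C1qb, Csf3r, Pecam1 and Col1a2. In the matrix labelled KO ocular, 4721 of the 7207 barcodes past the filters on UMIs, genes and mitochondrial share met the rule (65.5%, exact binomial 95% interval 64.4 to 66.6). The 4 matrices of the series held 39658 barcodes past those filters. The rule uses measured UMIs, so the levels of its genes are given as a description only.

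The series has 1 matrix for each of KO ocular, KO skin, WT ocular and WT skin, with no replicate, so no difference between matrices could be tested and every interval printed here covers counting error only. Genotype and site come only from the names that the submitters gave the matrices. The sources used here do not say which of the study's 4 knockout clones was injected, nor the sex and age of the mice or the time of harvest. The same rule kept 8253 cells in the matrix labelled KO skin, 5279 in WT skin and 7336 in WT ocular. The melanocytic cells had a median of 9878 UMIs in KO ocular, 4720 in KO skin, 6071 in WT skin and 5547 in WT ocular, and median mitochondrial shares of 0.865%, 0.224%, 2.03% and 8.11%. Its format sets WT ocular apart: it lists 32285 genes where the others list 19059, and its barcodes have 16 bases where theirs have 24, so its values are only set side by side. No whole barcode was shared between matrices, but 878 of the 4721 cells shared their first 16 bases with a KO skin barcode and 765 with a WT skin barcode. With WT ocular barcodes 0 did. The sample's title calls the tumour tissues multiplexed, and which matrices shared a run was not tested. Levels are given as CPM, counts scaled to 1000000 UMIs. As the sources used here do not give the number of probes per gene, levels are compared between cells for 1 gene and not between genes.

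Melanocytes make melanin inside melanosomes, organelles related to lysosomes. Pmel forms the fibrils on which the pigment settles, the enzymes Tyr, Dct and Tyrp1 make it, and Slc45a2, Slc24a5, Oca2 and Gpr143 set the conditions inside the organelle and its size. Mitf and Sox10 are transcription factors that keep these genes on, and MITF binds a short element, the M-box, in the promoters of several of them. BAP1 is a nuclear deubiquitinase that removes ubiquitin from histone H2A, and its loss marks uveal melanomas of high metastatic risk.

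The promoters of 3 pigment enzymes are shown because the cells were chosen by these genes. Each line holds the 250 bases before the transcription start from RefSeq, build GRCm38.p6, written 5′ to 3′ on the gene's strand. Capitals mark CATGTG, the core of the M-box, or its reverse complement CACATG. Tyr is read from the minus strand at chr7:87493513-87493762, Tyrp1 from the plus strand at chr4:80833963-80834212 and Dct from the minus strand at chr14:118052247-118052496.

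Tyr: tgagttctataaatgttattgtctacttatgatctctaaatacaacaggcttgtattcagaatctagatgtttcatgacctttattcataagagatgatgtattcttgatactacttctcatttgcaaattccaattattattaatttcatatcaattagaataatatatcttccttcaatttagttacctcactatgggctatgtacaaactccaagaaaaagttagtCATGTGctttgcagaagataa

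Tyrp1: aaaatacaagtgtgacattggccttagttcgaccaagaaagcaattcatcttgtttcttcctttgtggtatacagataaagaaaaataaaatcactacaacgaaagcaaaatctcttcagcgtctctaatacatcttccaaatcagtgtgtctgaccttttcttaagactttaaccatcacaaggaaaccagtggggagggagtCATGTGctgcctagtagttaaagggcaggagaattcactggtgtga

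Dct: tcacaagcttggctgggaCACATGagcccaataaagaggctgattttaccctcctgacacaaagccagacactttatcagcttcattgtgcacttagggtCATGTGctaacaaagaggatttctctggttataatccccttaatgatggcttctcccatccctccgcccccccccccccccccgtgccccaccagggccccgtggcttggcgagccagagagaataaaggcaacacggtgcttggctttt

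The element began 21 bases before the start in Tyr, 46 in Tyrp1, and 232 and 150 in Dct. Of the 11 rule genes, 6 had a promoter in the table used, and 5 of those held CATGTG on either strand. Among all 32851 windows of 300 bases (250 before and 50 after a start), 14.2% held it. A match is a description of the sequence and not a measured site.

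Every rule gene was far above the level in other cells of the same matrix. Mlana, a melanosome protein, stood at 1922 CPM (Poisson 95% interval 1912 to 1932) against 24.4 CPM in 474 neutrophil reference cells, barcodes with Csf3r and S100a8 or S100a9 and at most 3 rule genes. Pmel stood at 12691 CPM against 239, Tyr at 1867 against 23.3, Tyrp1 at 4016 against 49.99 and Dct at 23040 against 391. Pmel had a UMI in 99.8% of the melanocytic cells and in 45.8% of the neutrophil reference cells, whose median was 2695.5 UMIs, and Gpr143 in 81.8% and 0.844%. The rule fixes these gaps, since it asks for at least 7 rule genes in the cells and at most 3 in the reference, so they do not bear on the label. Of the cells, 3204 (67.9%) held all 11 rule genes, and 115 held the minimum of 7.

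**Figure D1:**
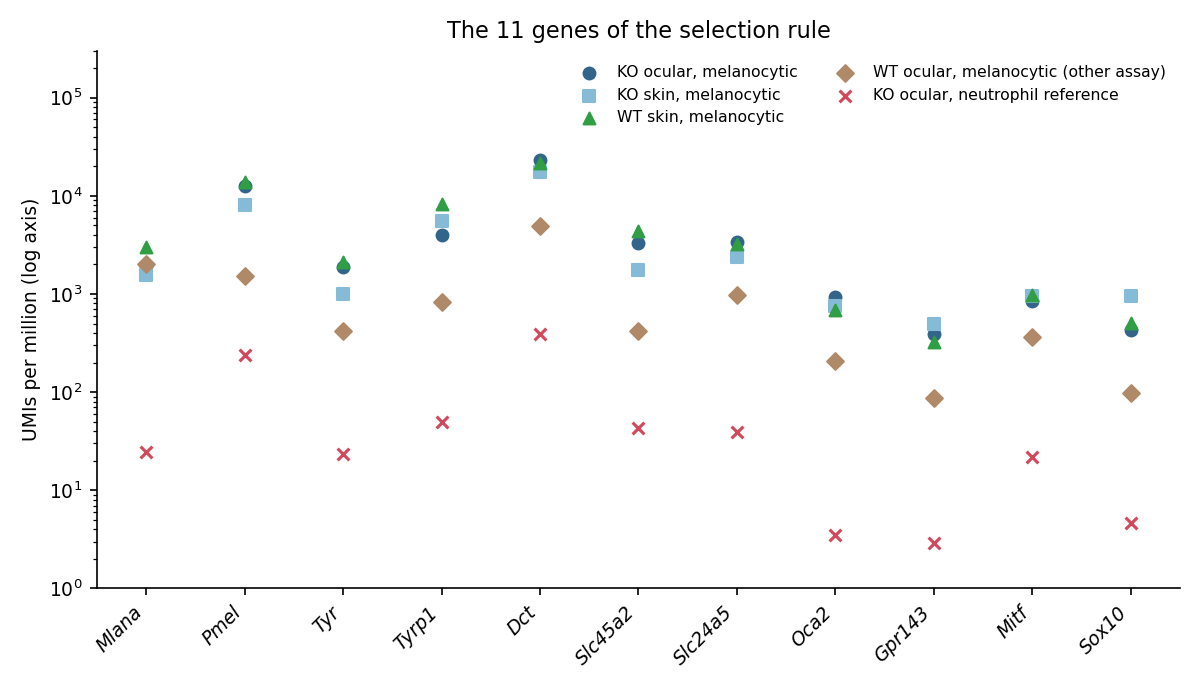
Levels of the 11 rule genes in CPM (log axis), 1 point per gene for the melanocytic cells of each matrix and for the neutrophil reference cells of KO ocular; each point is a pooled value of 1 matrix with no replicate. The crosses of the neutrophil reference lie below every melanocytic point, for example 391 against 23040 CPM for Dct.

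Across the matrices the pigment genes did not move in 1 direction. Tyrp1, which stabilises tyrosinase, stood at 4016 CPM in KO ocular, 5575 in KO skin, 8308 in WT skin and 837 in WT ocular. Tyr stood at 1867, 990, 2113 and 420 CPM in the same order. Sox10 stood at 432 CPM in KO ocular, 957 in KO skin, 506 in WT skin and 96.9 in WT ocular. Of the 11 genes, only Mlana was as high in WT ocular (2015 CPM) as in KO ocular, and the part of the other assay in this was not tested.

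Of the marker genes given with the rule, Mrgprb1, which encodes a Mas-related G-protein-coupled receptor, was not used to choose cells. It had a UMI in 4137 of the 4721 cells (87.6%) against 5.70% of the neutrophil reference cells. Its level was 920 CPM (interval 913 to 927) in KO ocular, 474 in KO skin, 256 in WT ocular and 0.749 in WT skin.

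At the edge of the rule, the 115 cells with 7 rule genes gave 0.999% of their UMIs to the rule genes, and the 83 barcodes with 6 gave 0.460%. Their Mrgprb1 levels were 129 and 63.6 CPM and their median depths 2749 and 2905 UMIs. A further 1083 barcodes had enough rule genes but 2 or more excluding genes. These gave 0.702% of their UMIs to macrophage genes, against 0.0325% in the 1914 cells kept with 1 excluding gene. The rule partly sets this gap, since C1qb is both an excluding gene and a macrophage gene. Col1a2, the collagen gene, was the excluding gene found most often, in 1430 cells (30.3%) against 1.27% of the neutrophil reference.

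The genes with the most UMIs in these cells included some of pigment cells and of secretion. The order is one of UMIs and not of expression, as the number of probes per gene is not known. Dct gave 2.30% of all UMIs, Ptgds, a prostaglandin D synthase, 1.301%, Pmel 1.27%, Selenop, the plasma selenium carrier, 1.21% and Gpnmb, a melanosome and lysosome glycoprotein, 0.928%. Tyrp1, Slc24a5, Creg1, Slc45a2, Ctsz, Fth1 (ferritin heavy chain), mt-Co2 and Lgals3 (galectin 3) followed with 0.402% to 0.261%. Gpnmb, Selenop, Fth1 and Lgals3 were not particular to pigment cells: Gpnmb gave 1.08% and Lgals3 0.942% of UMIs in the 58 macrophage reference cells (barcodes with C1qb and Csf1r and at most 3 rule genes). The beta globin Hbb-bs, also among the first 15, gave 0.389%, and 1.15% in the neutrophil reference.

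Leiden clustering of the 4721 cells gave 15 sub-clusters, numbered by size, and these fell into 3 kinds by UMIs of genes from outside the line. The split was made after the values were seen, at 40 CPM of Y-linked genes and at 5% of UMIs from red cell genes. It therefore fixes which kind is higher in these UMIs. The bulk table of Melan-a cultures lists none of the Y-linked genes Kdm5d, Uty, Ddx3y and Eif2s3y, while Xist stood between 13.6 and 14.3 on its log2-like scale in all 10 cultures. In 8 sub-clusters with 4072 cells (86.3%), called the main sub-clusters below, a Y-linked UMI was found in 41 cells (1.01%, exact interval 0.723 to 1.36) and the level was 0.690 CPM. In 6 small sub-clusters, 10 to 15, with 348 cells (7.37%), it was found in 163 cells (46.8%, interval 41.5 to 52.2) at 116 CPM. In the neutrophil and macrophage references the shares were 45.6% and 72.4%. With each cell thinned to 2000 UMIs, the shares were 0.172% in the main sub-clusters, 24.1% in sub-clusters 10 to 15 and 36.9% in the neutrophil reference.

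Each of the 6 sub-clusters with Y-linked UMIs was led by genes of a cell type other than melanocytes. Sub-cluster 10 (102 cells) was led by Csf3r, Hdc, Acod1, Slfn4, Slpi and Cxcr2, and neutrophil genes stood at 20413 CPM in it. Sub-cluster 12 (79 cells) was led by H2-Aa, Cd74, H2-Eb1, H2-Ab1, Ccl5 and Igkc, the first 4 of them MHC class II genes, and macrophage genes stood at 10046 CPM. Sub-cluster 14 (24 cells) was led by Cdh5, Pecam1, Flt1, Adgrl4, Sox18 and Cd34, genes of vessels, with endothelial genes at 11263 CPM. Sub-cluster 13 (43 cells) was led by Psca, Plet1, Prss27, Slc6a14, Nccrp1 and Sprr1a, genes of lining epithelia. Their rule genes still gave 1.67% to 4.59% of UMIs.

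Sub-cluster 11 carried fibroblast, Muller glia and pigment epithelium genes together, and sub-cluster 15 Schwann cell genes. Sub-cluster 11 (84 cells) was led by Igfbp2, A2m, Serpina3n, Clu, Col1a1 and Lox. Fibroblast genes stood at 12528 CPM in it, Muller glia genes at 8833 and pigment epithelium genes at 8455, the last against 37.5 to 625 in the main sub-clusters. Its rule genes gave 1.86% of UMIs, and 69.0% of its cells had a Y-linked UMI. Rpe65, the visual-cycle isomerase of the retinal pigment epithelium, stood at 308 CPM there and at 0.703 CPM or less in each main sub-cluster, and Otx2, a transcription factor of that layer, at 196 CPM, while Best1, a chloride channel of that layer, stood at 1.68 CPM. These 3 were chosen after their values were seen. Sub-cluster 15 (16 cells) was led by Rnase4, Fstl4, Fam107a, Fxyd1, Ednrb and Edil3, with Schwann cell genes at 2860 CPM.

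Sub-cluster 6 (301 cells) was set apart by red cell genes, which gave 16.5% of its UMIs against 0.113% to 0.545% in the main sub-clusters. Its leading genes included Car2, Slc4a1, Hbb-bt, Apol11b and Alas2. Its rule genes gave 5.01% of UMIs and Mrgprb1 stood at 958 CPM, both within the range of the main sub-clusters, and a Y-linked UMI was found in 6 of its cells (1.99%). Red cell genes gave 2.04% of UMIs in the neutrophil reference. Scrublet, a doublet caller, called 0 of 7207 barcodes and so did not work here. By its score, 45.1% of sub-cluster 10 and 19.0% of sub-cluster 12 lay in the top 5% of barcodes, against 0% of sub-clusters 11 and 15 and at most 4.49% of any main sub-cluster. Whether these barcodes hold more than 1 cell was not tested, and values in the main sub-clusters alone are printed beside the list and gene results they move.

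**Figure D2:**
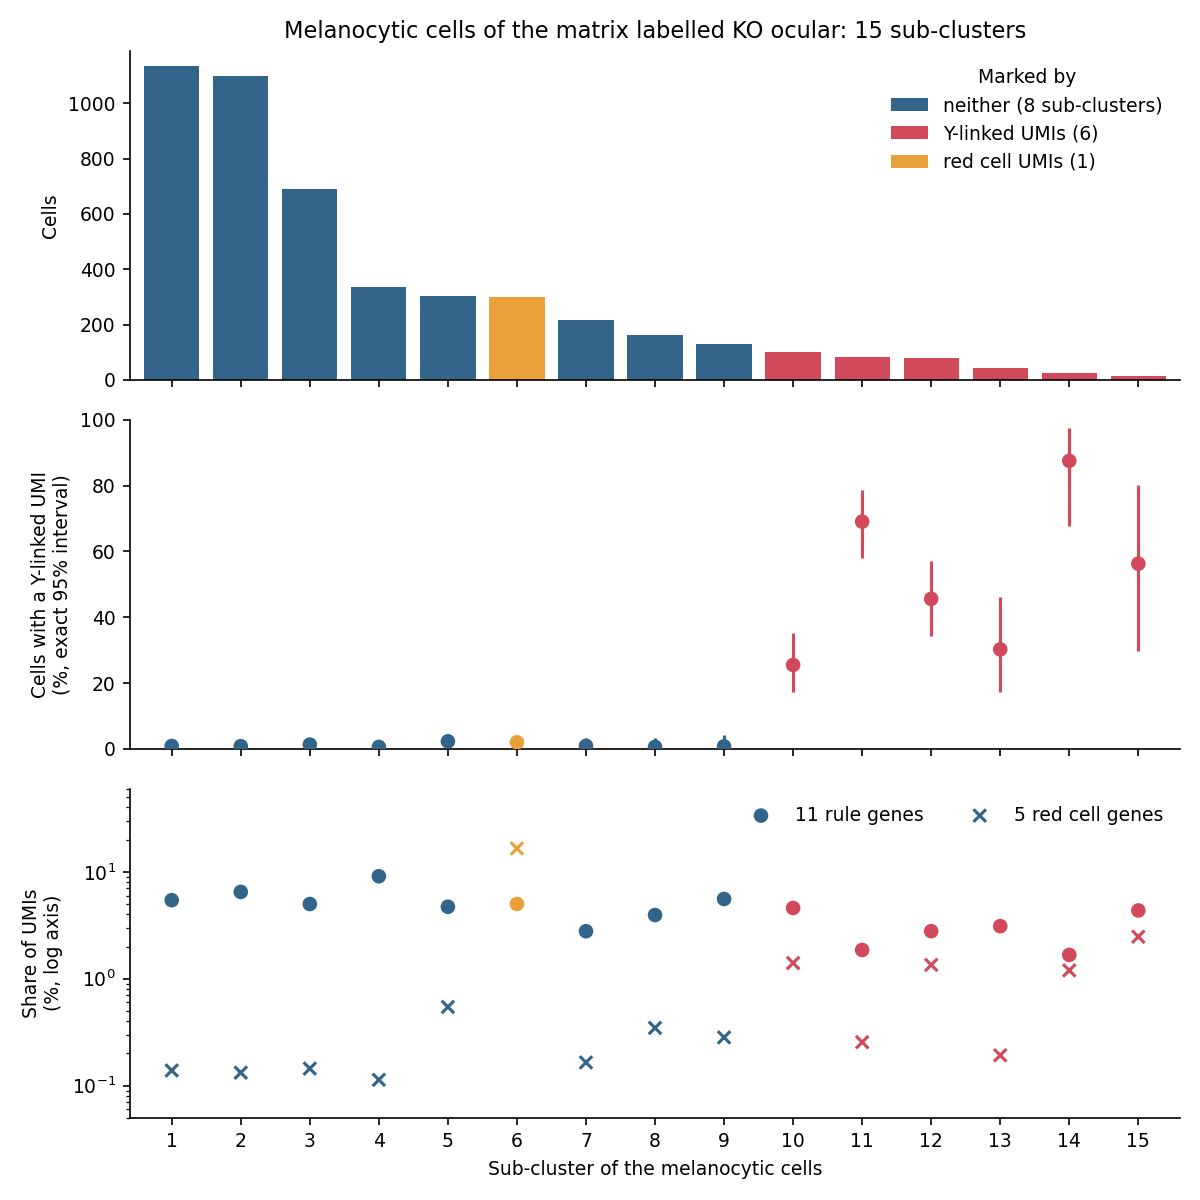
The 15 sub-clusters of the 4721 melanocytic cells: cells in each (top), share of cells with a UMI of 4 Y-linked genes with exact 95% intervals (middle), and share of UMIs from the 11 rule genes and the 5 red cell genes on a log axis (bottom). Sub-clusters 10 to 15, which were split off by their Y-linked UMIs, hold 25.5% to 87.5% of cells with a Y-linked UMI and the main sub-clusters at most 2.30%.

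Within the main sub-clusters the widest difference lay in the cell cycle. G2 and M phase genes ran from 280 CPM in sub-cluster 9 to 6353 CPM in sub-cluster 5, and S phase genes from 934 to 4412 CPM in the same 2. Sub-cluster 3 (691 cells) was led by the linker histone Hist1h1a, Pbk, cyclin Ccna2, Tpx2, Kif20a and Ube2c, and sub-cluster 5 (305 cells) by Ankle1, Neil3, Fbxo48, Knl1, E2f7 and Ncapg. Mki67, the proliferation marker, stood at 502 CPM in sub-cluster 3 and 1318 CPM in sub-cluster 5, against 23.7 to 125 CPM in the other 6. These lists were among the genes clustered, so the difference is a description.

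Counted per cell at a fixed depth of 2000 UMIs, 1318 cells (27.9%, exact interval 26.6 to 29.2) had at least 3 UMIs of the 27 G2 and M genes and 2070 (43.8%, interval 42.4 to 45.3) at least 3 of the 28 S phase genes. Either held for 2401 cells (50.9%) and both for 987 (20.9%). The neutrophil reference gave 0.844% and 2.53%, and the macrophage reference 6.90% and 15.5%. Without thinning the shares were 60.5% and 88.9%. The G2 and M share was 83.4% in sub-cluster 3, 88.5% in sub-cluster 5, 25.3% in sub-cluster 4, 11.9% in sub-cluster 1 and 4.01% in sub-cluster 2. The shares are a range of a per-cell sum: 412 cells had 2 UMIs of the G2 and M genes and 229 had 3.

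A second axis, drawn after the values were seen, set sub-clusters 2, 5 and 9 apart from the other 5 main sub-clusters in some lists. Nuclear genes of the respiratory chain stood at 4858, 4095 and 2900 CPM in sub-clusters 2, 5 and 9 against 5896 to 12263 CPM in the other 5. Glycolysis genes stood at 2333, 2019 and 1635 CPM against 2757 to 7365, and heat shock genes at 736, 670 and 606 CPM against 1231 to 2502. Genes of the BAP1 complexes were on the opposite side, at 1408, 1523 and 1404 CPM against 503 to 1182 CPM. Hypoxia genes were not split this way, at 2571, 2265 and 2154 CPM against 2194 CPM in sub-cluster 4. The 2 cycling sub-clusters lay on either side of this axis, 5 with 2 and 9, and 3 with the rest.

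Some single genes followed the same axis and others did not. Leng8, chosen after its values were seen, stood at 448, 349 and 395 CPM in sub-clusters 2, 5 and 9 and at 22.5 to 182 CPM in the other 5. Oca2, the melanosome anion channel, stood at 1797, 1103 and 1811 CPM against 340 to 952. Mrgprx2 stood at 622, 543 and 708 CPM against 144 to 317. Mrgprb1 was not split, at 1386, 1037 and 1268 CPM against 413 to 1141, nor was Sez6l, at 121, 57.9 and 32.9 CPM against 34.5 to 98.1. Sub-cluster 2 (1098 cells) was led by Gucy2f (a retinal guanylate cyclase), the odorant receptor genes Olfr1189 and Olfr5, Dnhd1, Hhatl and Mageb16. Sub-cluster 9 (129 cells) was led by Mctp1, Osbpl6, Nat8, Rab44, Defb41 and Dlec1. Median mitochondrial shares were 0.462%, 0.395% and 0.347% in sub-clusters 2, 5 and 9 and 2.65%, 1.48%, 0.888%, 0.0711% and 0.484% in sub-clusters 1, 3, 4, 7 and 8. Median depths were 9148.5, 12353 and 14432 UMIs against 4814.5 to 14836. The part of depth and mitochondrial share in this axis was not tested.

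Pigment genes varied between sub-clusters 4 and 7, where at 2000 UMIs 39.6% and 59.3% of cells had at least 3 S phase UMIs and 25.3% and 21.3% at least 3 G2 and M UMIs. Sub-cluster 4 (336 cells) had the highest rule gene level, 90977 CPM, with Dct at 42361 CPM, and sub-cluster 7 (216 cells) the lowest, 27828 CPM, with Dct at 11653 CPM. Lysosome genes ran the same way, from 18957 CPM in sub-cluster 4 to 5895 CPM in sub-cluster 7. Mitf did not follow: it stood at 749 CPM in sub-cluster 4, had its highest main value, 1460 CPM, in sub-cluster 7 and its lowest, 508 CPM, in sub-cluster 8. Sub-cluster 4 was led by the homeobox gene Rhox5, Csf2rb, Agt, Klra17, Sptbn1 and Wfdc3 at a median of 5578 UMIs and 2193.5 genes a cell. Sub-cluster 7 was led by Ppbp, Ctla2a, Gpd1, Ywhaz, Ybx1 and Eno3, with the highest glycolysis and respiratory chain levels and the lowest mitochondrial share.

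Sub-cluster 8 (164 cells) had the highest main level of immediate early, hypoxia and unfolded protein response genes, while heat shock genes were highest in sub-cluster 7 (2502 CPM, against 1885 CPM in sub-cluster 8). Sub-cluster 8 was led by Bpifa2, Col28a1, the heat shock gene Hspa1b, complement C3, Cp (ceruloplasmin) and Tcim. Immediate early genes stood at 5755 CPM there, against 1105 to 3404 CPM in the other main sub-clusters. Hypoxia genes stood at 5363 CPM against 2154 to 3965, and genes of the unfolded protein response and ATF4 at 6249 CPM against 2136 to 6004. Vegfa, the vessel growth factor, stood at 303 CPM against 83.3 to 195, and Trib3, an ATF4 target, at 138 CPM against 7.83 to 23.9; both were chosen after their values were seen. Sub-cluster 1 (1133 cells) was led by mt-Nd6, mt-Cytb, mt-Co1, S100b, mt-Nd4 and mt-Nd5.

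**Figure D3:**
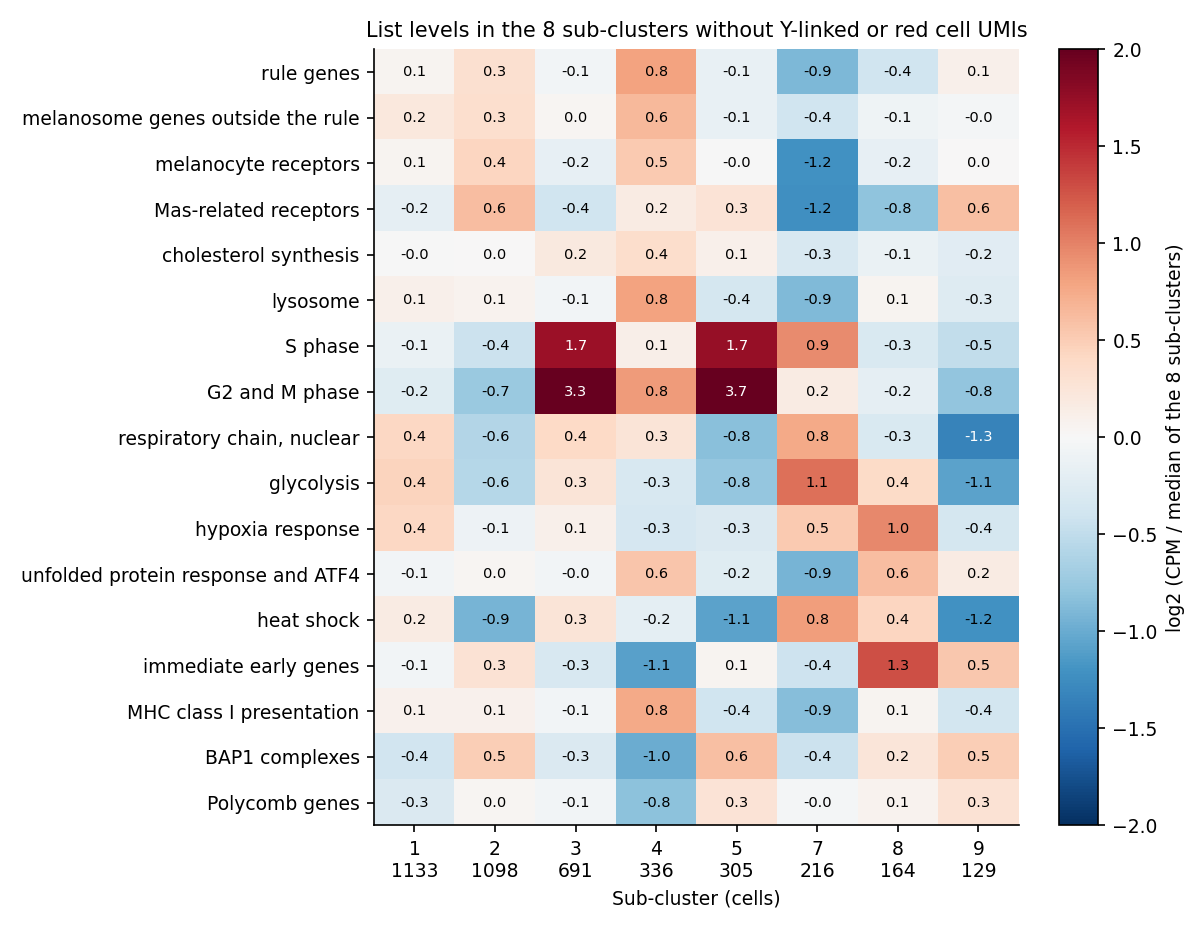
Summed level of 17 gene lists in the 8 main sub-clusters, as log2 of the CPM over the median of the 8; the second line under each column gives its cells, the printed value is the log2 ratio, and the colour stops at 2 in either direction. G2 and M genes stand out in sub-clusters 3 and 5 (4645 and 6353 CPM), and the respiratory chain is low in 2, 5 and 9 (4858, 4095 and 2900 CPM).

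Gene by gene, the highest variation lay in genes of other cells. At 2000 UMIs a cell, 721 of 9039 genes had a variance of at least 1.5 times their mean. The 20 highest were Hbb-bs, Gsto1, Hba-a2, Hbb-bt, Lyz2, Serpina3n, S100a9, Cxcl2, Hspa1a, Col1a1, S100a8, Muc4, Trf, Asprv1, Mgp, Clu, Thbs1, Igfbp3, Il1b and Plet1. Each of these had its highest level in sub-cluster 6 or in 1 of sub-clusters 10 to 15, as did 450 of the 721 (62.4%), against 3368 of all 9039 genes (37.3%), and some of these sub-clusters hold few cells. Hspa1a rested on 10 cells. In the 4072 cells of the main sub-clusters, 375 of 8828 genes passed, 372 of them among the 721.

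Among the main sub-clusters, globin, pigment, mitochondrial and a few single genes carried the excess variance. The globins Hbb-bs, Hba-a2 and Hbb-bt had variances of 48.0, 18.8 and 15.2 times their means. Dct had a variance of 13.9 times its mean, Selenop 13.5, mt-Co2 12.98, Pmel 10.8, Ptgds 9.26 and Gpnmb 6.51. Igfn1, a muscle-related immunoglobulin-domain gene, had 14.4 and ran from 72.5 CPM in sub-cluster 7 to 1994 CPM in sub-cluster 9. Adgb, the androglobin gene, had 7.36 and ran from 383 CPM in sub-cluster 4 to 7245 CPM in sub-cluster 9. Hspa1a (84.1) and Ppbp (18.7) rested on 3 and 26 cells. These genes were picked after their values were seen.

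The cells were next set against the melanocytic cells of the matrix labelled KO skin, the other matrix with a KO label. A gene was called apart at 2-fold with at least 10 CPM in either. Of 9471 genes, 662 were called higher in KO ocular (6.99%) and 862 lower (9.1%). Against WT skin, 570 of 9564 were called higher (5.96%) and 795 lower (8.31%). The median log2 difference over all genes was −0.15 against KO skin and 0.09 against WT skin. With edgeR's TMM scaling the KO skin median was 0.07 and the counts 1005 higher and 480 lower, so that 67.7% of the called genes were higher in place of 43.4%. List counts below are read against these shares, and both comparisons share the KO ocular cells. Only KO ocular was cut to its main sub-clusters, while each skin matrix kept all its melanocytic cells. Fibroblast genes stood at 347 CPM in KO ocular, 44.2 in its main sub-clusters, 681 in KO skin and 1374 in WT skin. Calls in the main sub-clusters therefore lean towards lower for genes of other cells.

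Genes of cholesterol synthesis were the clearest group. Of 13, 9 were called higher than in KO skin and 0 lower, also with TMM and also in the main sub-clusters alone, and 8 higher than in WT skin and 0 lower. The list stood at 7245 CPM in KO ocular, 2865 in KO skin, 3649 in WT skin and 1641 in WT ocular, and at 675 CPM in the neutrophil reference. Its median log2 difference was 1.33 against KO skin and 1.12 against WT skin. Insig1, the sterol sensor that holds SREBP back, stood at 1637 CPM (interval 1627 to 1646) in KO ocular, 440 in KO skin and 739 in WT skin. Sqle, squalene epoxidase, stood at 803, 270 and 526 CPM and Fdps, farnesyl diphosphate synthase, at 766, 355 and 357 CPM. Idi1 stood at 86.2, 21.2 and 30.9 CPM and Dhcr7, the last enzyme of the path, at 464, 151 and 182 CPM. Among the main sub-clusters of KO ocular the pooled level of the list ran from 5807 CPM in sub-cluster 7 to 9256 CPM in sub-cluster 4, a ratio of 1.59. Such pooled levels do not show the spread between cells. Over all the KO ocular melanocytic cells, thinned to the fixed depth, the variance of the list's UMIs per cell was 4.25 times their mean.

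The promoter of Hmgcs1, the HMG-CoA synthase of that path, chosen after the sequences were searched, is shown because SREBP factors act on such genes through sterol regulatory elements. It holds 250 bases before the start from RefSeq, build GRCm38.p6, plus strand, chr13:119690101-119690350. Capitals mark TCACNCCAC, which began 137 bases before the start.

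Hmgcs1: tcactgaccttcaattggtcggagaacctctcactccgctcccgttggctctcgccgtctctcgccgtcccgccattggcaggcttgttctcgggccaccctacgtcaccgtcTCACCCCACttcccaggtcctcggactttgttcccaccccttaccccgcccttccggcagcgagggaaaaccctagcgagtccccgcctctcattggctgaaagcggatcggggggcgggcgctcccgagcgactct

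Of the 13 genes, 8 had a promoter in the table and 1 held TCACNCCAC on either strand, against 1.24% of the 32851 windows. The element is searched here as a single spelling.

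G2 and M genes were called higher against both skin matrices more often than all genes, and S phase genes against KO skin. Of 28 S phase genes, 17 were called higher than in KO skin and 0 lower (19 in the main sub-clusters), and 2 higher than in WT skin, a share near the 5.96% of all genes. Of 27 G2 and M genes, 11 were called higher than in KO skin and 9 than in WT skin, and 0 lower than in either. Pcna, the polymerase clamp, stood at 363 CPM in KO ocular, 127 in KO skin and 185 in WT skin. Mki67 stood at 238, 65.2 and 150 CPM and Ccna2 at 174, 39.4 and 78.1 CPM. At 2000 UMIs a cell, the share with at least 3 G2 and M UMIs was 27.9% in KO ocular, 9.55% in KO skin, 17.05% in WT skin and 25.6% in WT ocular. The depth gap, with medians of 9878 against 4720 and 6071 UMIs, moved the same way, and its part was not tested beyond the thinning.

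Part of the hypoxia and glycolysis genes were lower. Of 18 hypoxia genes compared with KO skin, 9 were called lower and 1 higher (7 and 1 with TMM), and of 21 compared with WT skin 7 were called lower and 0 higher. Ndrg1, a stress-induced gene, stood at 53.8 CPM in KO ocular, 227 in KO skin and 394 in WT skin. Car9, the carbonic anhydrase that marks hypoxic cells, stood at 0.407 CPM (30 UMIs), 6.17 and 92.8 CPM. Adm, adrenomedullin, stood at 3.08 CPM (1.995 in the main sub-clusters), 17.5 and 25.7 CPM. The exception, Pgk1, stood at 394, 140 and 272 CPM. Of 9 glycolysis genes, 3 were called lower against each skin matrix and 0 higher (1 lower against KO skin with TMM, and 2 against WT skin in the main sub-clusters). Aldoa, an aldolase, stood at 960, 566 and 1264 CPM in KO ocular, KO skin and WT skin. Pgam1 stood at 274, 749 and 561 CPM. The share of cells with at least 3 hypoxia UMIs at 2000 was 81.7% in KO ocular, 82.0% in WT ocular, 94.1% in KO skin and 90.9% in WT skin. It was 92.4% in the neutrophil reference and 70.7% in the macrophage reference, so the share does not mark the melanocytic cells.

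Some stress and early response genes were higher. Of 16 genes of the unfolded protein response and ATF4, 6 were called higher than in KO skin and 2 than in WT skin, with 0 lower. In the main sub-clusters 5 and 1 were called higher, the latter a share near the 5.96% of all genes. Slc7a5, the leucine transporter, stood at 1305 CPM in KO ocular, 491 in KO skin and 872 in WT skin, and Hspa5, the chaperone BiP, at 437, 184 and 351 CPM. Chac1, a glutathione-degrading enzyme, stood at 27.5 CPM in all the cells and 6.17 in the main sub-clusters, against 142 in the neutrophil reference. Of 17 immediate early genes, 8 were called higher than in KO skin and 0 lower, but in the main sub-clusters 4 higher and 1 lower. Against WT skin 5 were called higher and 1 lower. Of 7 heat shock genes, 0 were called higher and 2 lower than in KO skin, and 0 in either direction against WT skin. Egr1 stood at 380 CPM in KO ocular and 378 in its main sub-clusters, against 72.2 in KO skin and 39.5 in WT skin, and at 2941 CPM in the neutrophil reference. Nr4a1 stood at 683, 414 and 287 CPM in KO ocular, KO skin and WT skin.

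**Figure D4:**
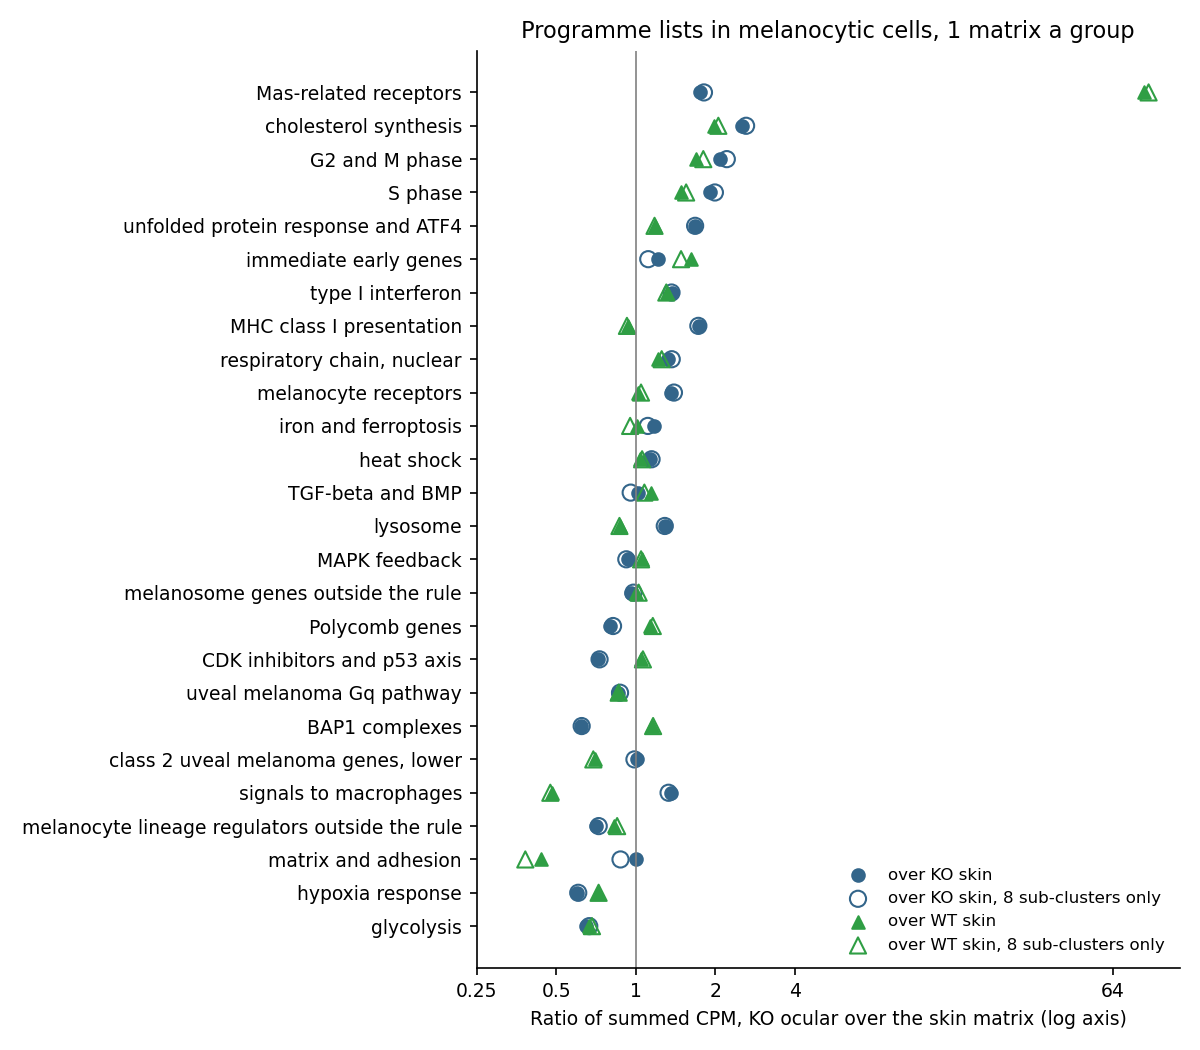
Ratio of the summed CPM of each gene list in the KO ocular melanocytic cells over those of KO skin (circles) and WT skin (triangles), on a log axis, for all 15 sub-clusters (filled) and the 8 main ones (open); each is 1 matrix against 1 matrix. Cholesterol synthesis lies to the right of 1 in both (7245 against 2865 and 3649 CPM) and hypoxia to the left (3145 against 5222 and 4372 CPM). Filled and open points use the same skin values, those of all the melanocytic cells.

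Most genes of the lineage, receptor and melanosome lists were not called apart. Of the 11 rule genes, 1 was called lower than in KO skin (Sox10) and 0 higher, but with TMM 2 were called higher and 0 lower. Against WT skin 1 was called lower (Tyrp1) and 0 higher, with 0 lower in the main sub-clusters. The cells of each matrix were chosen by these 11 genes, so their likeness is partly built in. Of 24 melanosome genes outside the rule, 1 was called higher and 3 lower than in KO skin. Of 7 melanocyte receptors 0 were called higher and 1 lower than in KO skin (3 lower in the main sub-clusters, 0 with TMM), and of 8 compared with WT skin 1 higher and 2 lower (1 and 3 in the main sub-clusters). Of 11 lineage regulators outside the rule, 2 were called lower and 0 higher against each skin matrix (0 lower against KO skin with TMM). Pax3, a transcription factor of the melanocyte lineage, stood at 364 CPM in KO ocular, 696 in KO skin and 281 in WT skin. Mlph, the melanosome transport adaptor, stood at 455 CPM in KO ocular, 1100 in KO skin and 1187 in WT skin. Met, the receptor of hepatocyte growth factor, stood at 1551, 1063 and 1554 CPM and Kit, the receptor of stem cell factor, at 525, 364 and 770 CPM. Axl stood at 708, 596 and 334 CPM. Erbb3, the neuregulin co-receptor, stood at 6.74, 14.1 and 57.6 CPM.

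Schwann cell and matrix genes were lower than in WT skin. Of 8 Schwann cell and myelin genes compared with WT skin, 6 were called lower and 1 higher, and the 12 genes of the list summed to 279 CPM in KO ocular, 546 in KO skin and 1073 in WT skin. S100b stood at 84.0 CPM in KO ocular, 234 in KO skin and 444 in WT skin. The higher gene, Mal, stood at 25.6 CPM in all the cells but 0.945 CPM in the main sub-clusters. Of 24 matrix and adhesion genes, 11 were called lower than in WT skin and 3 higher. In the main sub-clusters, set against all the WT skin cells, the counts were 15 and 1. Against KO skin 3 were called lower and 5 higher, but 8 and 1 in the main sub-clusters and 1 and 7 with TMM. Sparcl1, a matricellular glycoprotein, stood at 453, 530 and 3213 CPM in KO ocular, KO skin and WT skin. Timp1 and Timp3, inhibitors of metalloproteinases called higher, stood at 55.5 and 41.2 CPM in all the cells and at 2.36 and 1.77 CPM in the main sub-clusters. Spp1, osteopontin, stood at 845, 628 and 5691 CPM, and at 7209 CPM in the macrophage reference.

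Antigen presentation genes split by component. B2m, the light chain of MHC class I, stood at 501 CPM in KO ocular, 244 in KO skin and 617 in WT skin. The heavy chain H2-K1, one of a family of near-copies, stood at 9.88 CPM in all the cells and 1.28 CPM in the main sub-clusters, against 23.3 in KO skin, 37.8 in WT skin and 322 in the neutrophil reference. Of 10 MHC class I presentation genes compared with WT skin, 5 were called lower and 0 higher, and of 7 compared with KO skin, 2 higher and 1 lower. MHC class II genes stood at 59.7 CPM in all the cells and 8.51 CPM in the main sub-clusters, against 4738 in the macrophage reference.

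The 12 genes farthest above KO skin were Prss27, Psca, Krt13, Plet1, A2m, Muc4, Nccrp1, Prss22, Igfbp2, Serpina3n, Hbb-bt and Ly6a. All 12 had their highest level in sub-cluster 6, 11 or 13. Of the 9039 genes examined for variance, 37.3% peaked in any sub-cluster with Y-linked or red cell UMIs. Prss27, an epithelial protease, stood at 53.3 CPM in KO ocular and 0.0513 CPM (3 UMIs) in KO skin, but at 0.960 CPM in the main sub-clusters, and at 281 CPM in the neutrophil reference. Serpina3n, a protease inhibitor, stood at 440 and 7.84 CPM, with 12.2 CPM in the main sub-clusters and 17443 CPM in sub-cluster 11. In the main sub-clusters alone, 555 genes were called higher than in KO skin and 939 lower.

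The 12 farthest below KO skin were Per2, Rgs11, Coro6, C1qb, Gucy2f, Kcnt1, Spef1, Six5, Ctss, Ankrd23, Akap8l and Col20a1. Of these, 10 had their highest main value in sub-cluster 2, 5 or 9, as did 40.7% of the 5103 genes with at least 50 CPM in KO skin. Gucy2f stood at 71.6 CPM in KO ocular, 414 in KO skin, 140 in WT skin and 10.4 in WT ocular, and at 217 CPM in sub-cluster 2. The clock gene Per2 stood at 7.57 CPM, 68.2, 2.81 and 1.72 CPM, so WT skin was lower still. Over all 15 sub-clusters, 8 of the 12 had their highest level in an other-cell sub-cluster, against 37.3% of the 9039 genes examined for variance. The macrophage genes C1qb (658 CPM) and Ctss peaked in sub-cluster 12. Of the rest, 5, Gucy2f included (244 CPM), peaked in the 16 cells of sub-cluster 15. Per2 peaked in the 24 cells of sub-cluster 14, at 25.2 CPM against 21.1 in sub-cluster 8. The peaks in sub-clusters 14 and 15 rest on few UMIs. All 12 were also called lower in the main sub-clusters alone. C1qb, which the rule limits, stood at 9.57 CPM in KO ocular (2.60 in the main sub-clusters), 56.1 in KO skin, 72.9 in WT skin and 2465 in the macrophage reference. All 12 macrophage genes of the list had UMIs in these cells, and their sum was 245 CPM in KO ocular (130 in the main sub-clusters), 491 in KO skin and 894 in WT skin.

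Against WT skin the 12 highest genes were Muc4, Mrgprb1, Krt13, Prss22, Mrgprx2, Psca, Plet1, A2m, Prss27, Myo16, Nccrp1 and Sez6l. Of these, 8 peaked in an other-cell sub-cluster, against 37.3% of the 9039 genes examined for variance, and Mrgprb1, Mrgprx2, Myo16 and Sez6l in a main one. Myo16, an unconventional myosin, stood at 58.7 CPM in KO ocular, 49.5 in KO skin and 0.416 in WT skin. The 12 lowest were Cpne4, Car9, C4b, Gpr37, Mmp10, Saa3, Asb2, Pmp2, Lifr, Cyp2d22, Hsd17b11 and Tspan32. C4b, complement component 4, stood at 30.3 CPM in KO ocular (13.98 in the main sub-clusters), 21.2 in KO skin and 1782 in WT skin, and Gpr37, a glial receptor, at 1.49, 1.64 and 77.4 CPM. Cpne4 stood at 0.122 CPM (9 UMIs), 0.308 and 55.6 CPM. Of these 12, 10 had their highest KO ocular level in an other-cell sub-cluster, C4b at 5174 CPM in sub-cluster 15. The share of 37.3% covers genes above a minimum mean, and most of these 12 lie lower. Some of the peaks were near the floor, such as Car9 at 3.36 CPM in sub-cluster 11 and Asb2 at 7.70 CPM in sub-cluster 12.

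The bulk cultures gave a way to set the cells beside single clones. A gene set a line apart when both of its cultures lay at least 2 units above, or below, every other culture on the deposited log2-like scale. By this rule 4 genes marked knockout clone 2 from above: Sez6l, Ephb1, Mrgprb1 and Mrgprx2. Mrgprb1 lay at 13.2 and 13.1 in the cultures of clone 2, at 10.2 to 10.7 in clones 1 and 3, and at 6.97 to 7.23 in the parental line and clone 4. Mrgprx2 lay at 10.99 and 10.7 in clone 2, at 8.34 to 8.57 in clones 1 and 3, and at 6.61 to 6.88 in the rest. These 2 genes were thus also raised in clones 1 and 3. Sez6l, a neuronal transmembrane protein gene, lay at 12.2 and 12.1 against 6.61 to 6.92, and Ephb1, an ephrin receptor, at 10.4 and 10.8 against 6.61, the value of a gene with no reads. No gene marked the parental line or clone 1. Clone 3 was marked from below by Syt4, Tgm2 and Prdm16, and clone 4 from above by Prl7a2 and from below by Fn1 and Cyp4b1.

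All 4 genes of clone 2 were present in the KO ocular cells. Mrgprb1 stood at 920 CPM in KO ocular, 474 in KO skin, 256 in WT ocular and 0.749 in WT skin. Mrgprx2 stood at 329, 233, 46.0 and 0.375 CPM, Sez6l at 83.8, 55.9, 78.3 and 1.06 CPM and Ephb1 at 39.9, 45.6, 27.3 and 0.2498 CPM in the same order. The neutrophil reference had 16.9, 7.56, 1.74 and 0 CPM of the 4. Both KO matrices were therefore high and WT skin low, and the matrix labelled WT ocular was high, against its label. Mrgprb1 (chromosome 7, 48444113 to 48456342 on GRCm38.p6) and Mrgprx2 (48478619 to 48499270) are neighbours in a multigene family, and the sources used here do not say whether their probes tell them apart. Within KO ocular, Mrgprb1 ran from 413 CPM in sub-cluster 7 to 1386 CPM in sub-cluster 2.

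The genes of the other clones were spread over the matrices. Syt4, a synaptotagmin, lay at 7.67 and 7.88 in clone 3 and at 12.7 to 15.03 in the other lines, and stood at 180 CPM in KO ocular, 99.3 in KO skin, 257 in WT ocular and 10.2 in WT skin. Fn1, fibronectin, lay at 9.94 and 10.2 in clone 4 and at 13.2 to 15.5 in the others, and stood at 90.05 CPM in KO ocular, 87.1 in KO skin, 59.0 in WT ocular and 827 in WT skin. Cyp4b1, a cytochrome P450, stood at 193, 356, 69.8 and 952 CPM and Tgm2, a transglutaminase, at 48.2, 78.8, 19.1 and 31.8 CPM in the same order, Tgm2 also at 1199 CPM in the neutrophil reference. For these genes of clones 3 and 4 the values are of all the cells only. Prl7a2 stood at 0.666 CPM or less and Prdm16 at 9.42 CPM or less in each matrix.

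**Figure D5:**
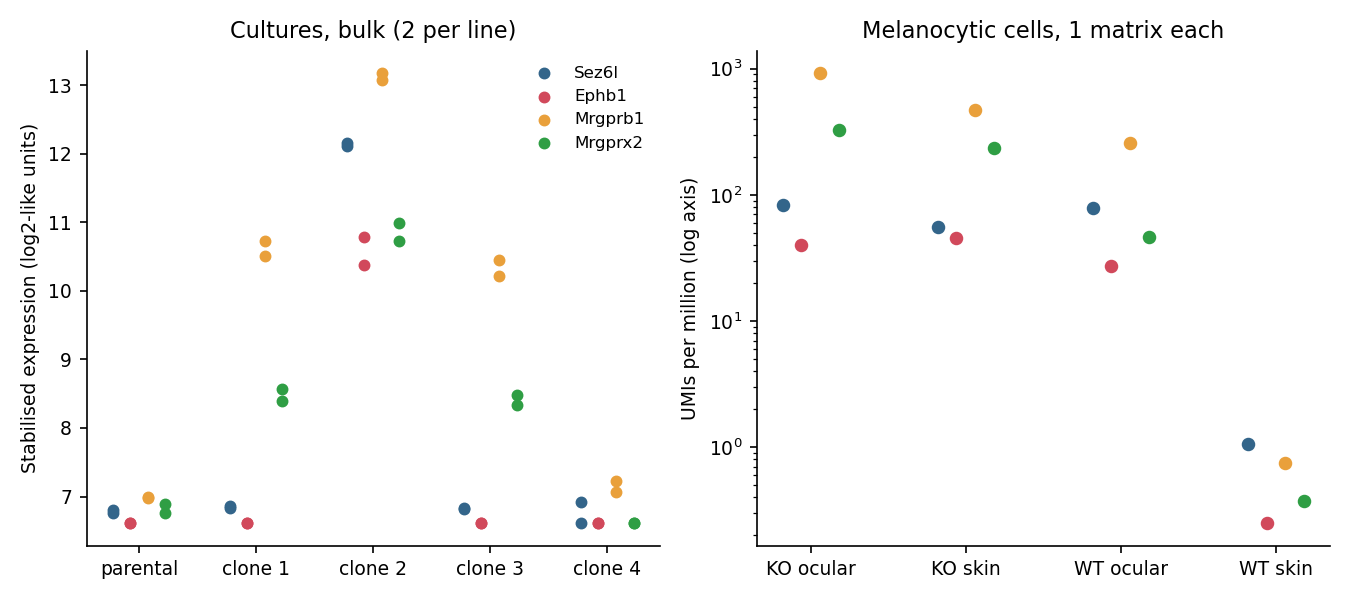
The 4 genes that mark knockout clone 2: stabilised bulk expression in each of 10 cultures, 2 points per line and gene with overlaps (left), and CPM, log axis, in the melanocytic cells of the 4 matrices, 1 pooled value each (right). Both clone 2 cultures lie highest, and KO ocular, KO skin and WT ocular lie above WT skin (Mrgprb1 at 920, 474, 256 and 0.749 CPM).

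Bap1 itself did not set KO ocular apart from WT skin in these matrices. It stood at 33.5 CPM (interval 32.2 to 34.9) in KO ocular, 48.1 in KO skin, 41.1 in WT skin and 5.66 in WT ocular, with a UMI in 34.1% of the KO ocular cells and 8.23% of the neutrophil reference. Bap1 lies on chromosome 14 from 31251352 to 31259930 (GRCm38.p6). The sources used here do not give the positions of the edit or of the Bap1 probes, and a probe outside the edited part checks no knockout label. Bulk Bap1 lay at 12.2 in both parental cultures and at 9.07 to 10.4 in the 8 knockout cultures. Of the 12 genes of the BAP1 complexes compared, 3 were called lower than in KO skin (2 with TMM) and 1 higher than in WT skin. Ogt, the O-GlcNAc transferase that works beside BAP1, stood at 130 CPM in KO ocular, 400 in KO skin and 139 in WT skin. Cdkn2a, the tumour suppressor locus whose loss immortalises melanocytes, stood at 185, 187 and 67.1 CPM in the same order.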

How the data were processed

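Single-cell RNA was measured in 4 tumour matrices held under 1 sample of the series. Raw UMI counts per gene and barcode were deposited; per the file headers they came out of Cell Ranger, version 7.0.0 in WT ocular and version 8.0.0 elsewhere. Per the submitters' processing notes the builds were GRCm38 and mm10. Bulk values of 10 cultures (5 lines, 2 each) were deposited by the authors as stabilised values on a log2-like scale, by a tool that the sources used here do not name. Per the labels' protocols, a workflow for fixed tissue was used, while a 3′ chemistry is also named. The whole-genome and exome libraries were not analysed here.

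The rule was applied to the counts, and counts of the chosen cells were summed per matrix and scaled to 1000000 UMIs (CPM). The members and the 53 gene lists were chosen with earlier results of these data known. Cells were clustered with scanpy 1.11.5 (2000 variable genes, 30 components, 15 neighbours, Leiden resolution 0.5). Cells were thinned to 2000 UMIs with a fixed seed for shares and variances, which counted genes with a mean of at least 0.02. TMM factors came from edgeR 4.0.16 under R 4.3.3, which was used for scaling only. Python 3.11.15, numpy 2.4.6, scipy 1.17.1 and pandas 2.3.3 were used, and the fold calls, the thinning and the variance over mean were tested on simulated data, while the clustering was not. With 1 matrix a group no test was made. The 4 matrices held 88.8 to 116 times 1000000 UMIs.

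Genes were named by rule: the rule genes and markers, the 3 members of each list with the highest level and up to 2 with at least a 2-fold difference from both skin matrices, the 20 highest in variance over mean, 6 leading genes per sub-cluster with at least 50 CPM, 12 in each direction per skin matrix, the 15 with the most UMIs, and the genes of each bulk line. Some genes that the rule names are not reported here. Other names are marked as chosen after their values were seen. Promoters come from RefSeq. Alternatives were other limits on UMIs, rule genes, excluding genes and doublet score, other thinning depths, clustering resolutions, CPM minimums, per-cell means, TMM, and 1 or 3 bulk units. Leaving out the sub-clusters with Y-linked or red cell UMIs was added after the data were seen and was done in KO ocular only.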

Additional observations from a re-analysis of the deposited data

How the results depend on the processing

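Of 4721 cells, 2807 remained when no excluding gene was allowed, and from 3753 to 5804 under the other limits. Cholesterol genes, 0.725% of UMIs, gave 0.730% at a minimum of 5000 UMIs, 0.736% with 9 rule genes, 0.714% with no excluding gene, 0.689% as a mean over cells, 0.745% without sub-clusters 10 to 15 and 0.750% without sub-cluster 6 as well. Red cell genes, 0.719% of UMIs, gave 0.504%, 0.588%, 1.03%, 1.88%, 0.723% and 0.180% under the same settings, and 0.706% without the top 5% by doublet score.

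The settings without sub-clusters were chosen after seeing the data. Shares of cells with 3 UMIs of a list move with the depth kept. Thinning to 5000 UMIs also left out the cells with fewer, both for these shares and for the overdispersed genes below. Thinned to 1000 UMIs, thinned to 5000 and not thinned, the G2 and M share of 27.9% was 18.9%, 42.9% and 60.5%, the S share of 43.8% was 24.4%, 80.4% and 88.9%, and the hypoxia share of 81.7% was 49.99%, 98.8% and 97.9%. In the main sub-clusters the S share was 46.0% and the hypoxia share 83.4%. The 721 overdispersed genes were 309 and 1799 at 1000 and 5000 UMIs, 409 without sub-clusters 10 to 15, and 375 in the main sub-clusters.

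Genes higher and lower than in KO skin, 662 and 862, were 1005 and 480 with TMM, 1165 and 1570 at a minimum of 1 CPM, and 344 and 429 at 50 CPM. Those against WT skin, 570 and 795, were 1089 and 1736 at 1 CPM and 252 and 284 at 50 CPM. Genes that set 1 bulk line apart were 85 at 1 unit, 10 at 2 units and 4 at 3 units. The cause of these shifts was not tested, beyond the number of genes each CPM minimum admits. The 15 sub-clusters were 11 and 21 at resolutions of 0.3 and 1.0. No paired analysis was possible because each matrix is a single sample and no result comes from a test.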
